A study of Mus musculus with 2 samples.

Results

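ETS factors are transcription factors that share a DNA-binding domain, the ETS domain, which reads a core of GGAA in DNA. Blood cells use many of them: PU.1, the product of Spi1, drives myeloid and lymphoid fates and is known to oppose GATA-1, while FLI1 and ERG serve stem cells, megakaryocytes and endothelium. Some members repress transcription, some act with serum response factor, and EHF belongs to a branch best known from epithelia. The genes described here are Ehf, Spi1, Fli1, Erg, Ets1, Ets2, Etv6, Elf1, Gabpa and Elk3. They were chosen by name, with earlier results of these data known. All 10 were on the array, by 26 probe sets (short groups of oligonucleotides that read 1 transcript region) whose only gene symbol was that of the member, out of 18193 genes and 34945 probe sets with 1 symbol. No probe set named a member together with another gene.

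The cells were G1E, a mouse erythroid progenitor line without GATA-1, made to express ER-GATA-1(V205G). This fusion joins part of the estrogen receptor, which makes it depend on ligand, to GATA-1 with a change that weakens its binding to the cofactor FOG-1. Per the labels, 1 array was made of total RNA from these cells before treatment (untreated, 0 h) and 1 array after 24 h with 1 µM estradiol. With 1 array per group no p-value, SD between cultures or standard error exists, and no difference below has a replicate check. Both groups carried the fusion, so effects of the activated mutant, of estradiol and of 24 h in culture cannot be told apart. With bulk RNA, a smaller share of cells of a type and less RNA per cell cannot be told apart either.

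Values are linear signal intensities. A floor was set at the median signal of both arrays, 95.2, which 49.2% of probe sets reached untreated and 50.9% with estradiol. A gene took its brightest probe set and counted as measured when both arrays reached the floor. Where only 1 array reached it, the dimmer signal was set to the floor and the fold difference is a lower bound (at least N-fold). Genes below it on both arrays were given no ratio. Ratios are log2 of estradiol over untreated. They were read against 2 SD of the ratios of probe sets of the same gene, which was 0.62 for dim genes, 0.50 for genes of middle signal and 0.36 for bright genes (tertiles). All 7 erythroid progenitor markers looked up (Kit, Gata2, Myb, Klf1, Epor, Tfrc, Lyl1) were measured, from 2516 to 9175 untreated and from 2295 to 10048 with estradiol. Gata1 read 1264 and 1191, and since its probe set may or may not detect the fusion, these values are no check of the labels.

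Of the 10 ETS factor genes, Ehf was past 2-fold, by a bound. It was below the floor untreated and at least 11.2-fold above it with estradiol. Ets2 and Etv6 were lower with estradiol by 1.79-fold and 1.56-fold, and Erg went from 153, above the floor, to 51.1, below it, a bound of at least 1.61-fold lower, which does not show whether the difference passed 2-fold. Spi1, Ets1, Elf1 and Gabpa lay within 1.35-fold, and Fli1 and Elk3 were below the floor on both arrays. Thus 6 of 10 were measured, against 56.3% of all genes. None of the 6 was 2-fold higher or lower, beside 3.14% of 10240 measured genes. At 1.5-fold, 2 of the 6 were lower, beside 4.85% of measured genes. Of the 6, 2 lay beyond 2 SD, both lower, beside 17.7% of measured genes beyond 2 SD in either direction and 8.27% lower. The median of the 6 log2 ratios was -0.05, and 0.00 over all measured genes. Under a common median scaling, which puts the median of all measured genes at -0.11 and turns the split of 209 genes 2-fold higher and 113 lower into 160 and 161, each of these 6 ratios kept its sign.

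**Figure D1:**
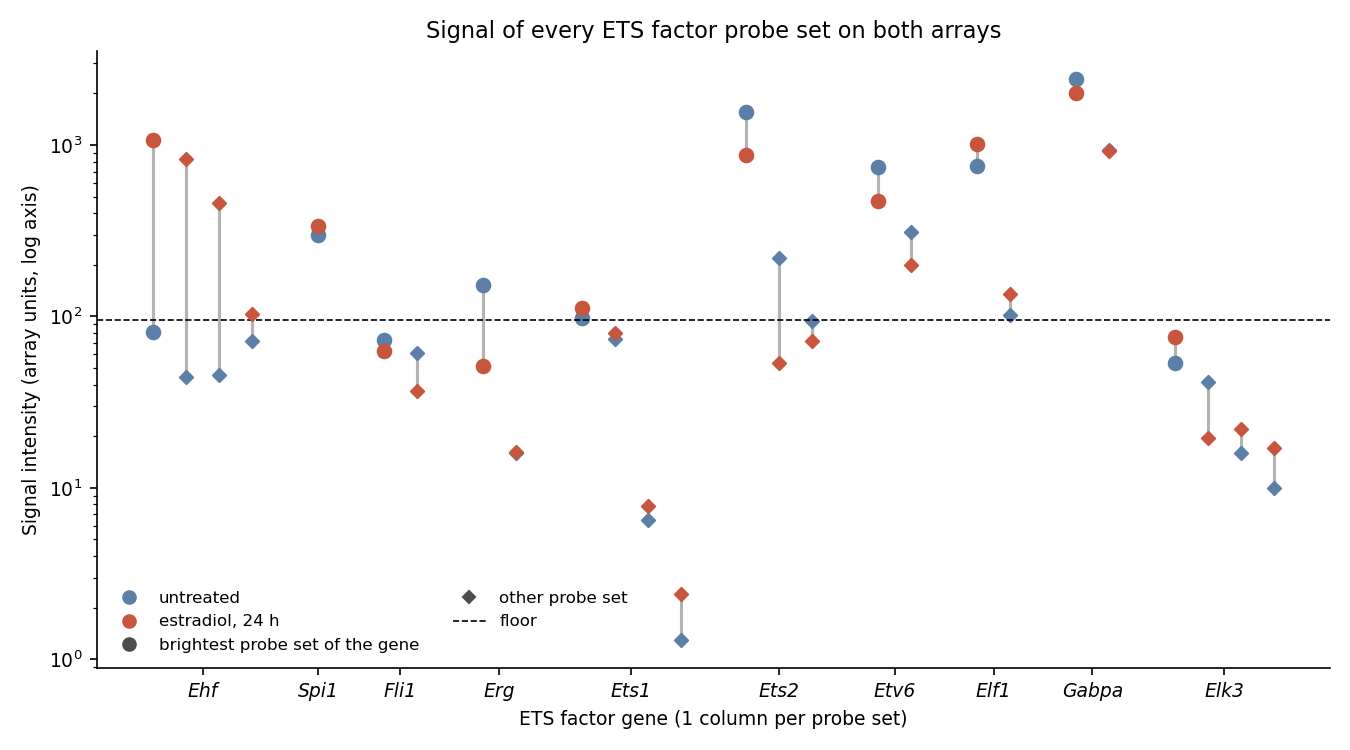
Signal intensity (log axis) of each of the 26 probe sets of the 10 ETS factor genes, untreated in blue and after 24 h of estradiol in red, with the floor of 95.2 as a dashed line; round points are the brightest probe set of a gene and diamonds the others, and there is 1 array per condition. Of the 4 Ehf probe sets, 3 go from below 95.2 to between 457 and 1067. For Spi1, Ets1 and Gabpa, each taken alone, the blue and red round points lie within 1.21-fold of each other.

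**Figure D2:**
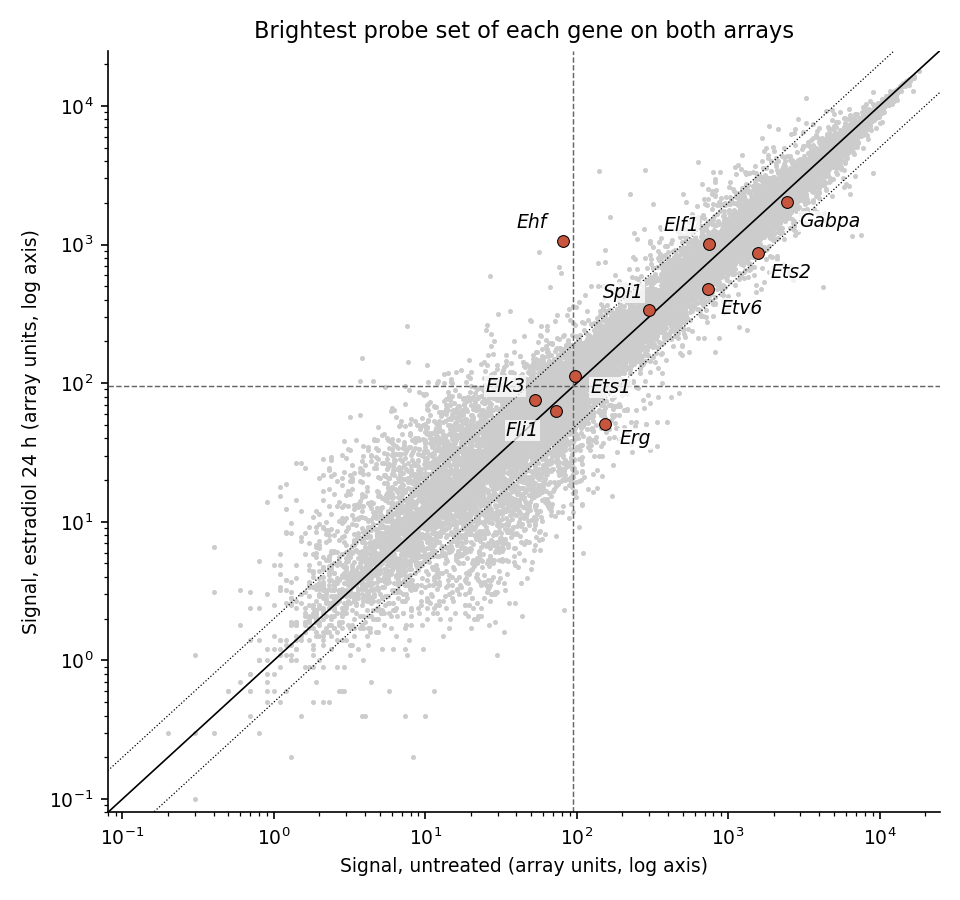
Signal of the brightest probe set of each of 18193 genes, untreated against estradiol (both axes log), with the 10 ETS factor genes in red; the solid line marks equal signal, dotted lines 2-fold and dashed lines the floor of 95.2. Ehf stands apart at 81.0 and 1067, and the other ETS factors lie between the dotted lines except Erg, at 153 and 51.1.

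Promoter sequence from RefSeq (GRCm38.p6) was matched for 6 of the 10 genes, as 9 windows of the 250 bases before an annotated start: 3 for Erg, 2 for Elf1 and 1 each for Ets2, Etv6, Gabpa and Elk3. Ehf, Spi1, Fli1 and Ets1 had no entry. Windows are shown for the 3 members whose signal was lower with estradiol by more than 1.5-fold, Ets2, Etv6 and Erg (for Erg the start whose window held a GATA word). They are written 5′ to 3′ on the gene's strand, with capitals for matches, on either strand, to the ETS core GGAA (reverse TTCC) or to the GATA words AGATAA or AGATAG or TGATAA or TGATAG.
Ets2, chr16:95702157-95702406, plus strand: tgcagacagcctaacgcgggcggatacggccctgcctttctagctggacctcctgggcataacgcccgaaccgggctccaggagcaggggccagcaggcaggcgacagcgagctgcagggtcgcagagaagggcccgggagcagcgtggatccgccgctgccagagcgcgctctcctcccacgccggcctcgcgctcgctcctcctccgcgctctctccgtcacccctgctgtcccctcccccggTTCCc
Etv6, chr6:134035450-134035699, plus strand: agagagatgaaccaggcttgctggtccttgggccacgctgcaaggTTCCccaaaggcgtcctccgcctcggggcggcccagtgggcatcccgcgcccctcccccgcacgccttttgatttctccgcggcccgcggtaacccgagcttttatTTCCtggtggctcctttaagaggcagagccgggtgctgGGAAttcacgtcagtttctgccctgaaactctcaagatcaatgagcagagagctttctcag
Erg, chr16:95459349-95459598, minus strand: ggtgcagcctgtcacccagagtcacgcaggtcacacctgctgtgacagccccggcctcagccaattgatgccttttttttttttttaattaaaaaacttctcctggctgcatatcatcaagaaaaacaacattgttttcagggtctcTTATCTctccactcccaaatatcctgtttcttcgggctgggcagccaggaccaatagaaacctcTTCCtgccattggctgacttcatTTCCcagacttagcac

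Among these windows GGAA matched 1 time for Ets2, 3 times for Etv6 and 2 times for this Erg start, and the median over all 32851 promoter windows of the same length was 3. At least 1 GGAA match was present in 93.4% of all windows. A GATA word was present in 26.5% of all windows and in 1 of the 9 windows of ETS factor genes, the Erg one shown, where it starts 103 bases before the start of the transcript. No GATA match overlapped a GGAA match in the windows shown. The Gabpa window held 5 GGAA matches, the 2 Elf1 windows 2 and 0, the Elk3 window 2, and the other Erg windows 0 and 4. The Ets2 window was 71.6% G and C with 25 CpG, and the Etv6 window 60.4% with 16, while the Erg window shown had 47.2% and 3. Matches are counts of letters and were not tested for binding.

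Ehf encodes an epithelial ETS factor, also known as ESE-3. Its brightest probe set read 81.0 untreated and 1067 with estradiol. The next brightest read 44.5 and 832, and another read 45.5 and 457. These 3 were all below the floor untreated and well above it with estradiol, with bounds of at least 11.2-fold, 8.74-fold and 4.80-fold. The remaining one, of the kind in which some probes resemble unrelated sequence (names ending in _x_at), read 72.2 and 103, a bound of at least 1.08-fold. With no floor and 16 added to each signal, the 4 log2 ratios were 3.48, 3.81, 2.94 and 0.43. The probe sets thus shared a direction but not a size.

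Ehf had the highest bound, and so the highest estradiol signal, of the 745 genes that reached the floor with estradiol only. Of these, 5.37% were at least 2-fold above the floor and 0.805%, or 6 genes, at least 4-fold. Among the 10240 measured genes, 2 had a ratio as high as this bound. Since the members were chosen with earlier results of these data known, the rank of Ehf is not an independent finding. The bound depends on the floor: at the 70th percentile of signals, 319, it was 1.74 on the log2 scale, and at the 30th percentile, 31.7, both arrays counted as measured and the log2 ratio was 3.72.

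The 5 genes nearest to Ehf in this pattern, by the bound, were Cfap61, Mboat2, Dmtn, Hbb-bh1 and Tac2. Their bounds were at least 9.22-fold, 7.26-fold, 6.54-fold, 6.19-fold and 5.20-fold higher. With no floor and 16 added, the log2 ratios of Hbb-bh1 (3.83) and Cfap61 (3.62) were above that of Ehf (3.48). Those of Mboat2, Dmtn and Tac2 were below it, so the top rank of Ehf depends on the floor. Cfap61 is a cilia-associated protein gene, Mboat2 a lysophospholipid acyltransferase gene, Dmtn the gene of the red cell skeleton protein dematin, Hbb-bh1 an embryonic beta-like globin gene, and Tac2 a tachykinin gene. Likeness here rests on 2 arrays and says only that the brightest probe sets went from below the floor to a signal of 495 to 877. All 3 Hbb-bh1 probe sets and both Mboat2 probe sets crossed the floor in this way, whereas a measured second probe set of Cfap61 and one of Dmtn each had a log2 ratio of 0.16.

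Elf3 and Elf5 belong to the same epithelial branch of the family as Ehf. Elf3 read 210 and 462 on its only probe set, a log2 ratio of 1.13 or 2.20-fold higher, beyond the 2 SD of 0.62. Elf5, the gene next to Ehf on its chromosome, was below the floor at 10.0 and 21.0. Of 13 epithelial markers looked up, which include Elf3 and Elf5, 8 were below the floor on both arrays, beside 37.2% of all genes. The summed signal of the list was 2322 untreated and 2895 with estradiol. Among those below the floor, the keratin genes Krt18 and Krt19 read 12.2 and 13.9, and 8.40 and 8.30. The cadherin gene Cdh1, also below the floor, read 19.1 and 11.1. The keratin gene Krt8 crossed the floor, from 94.4 to 137, with its other probe sets below it. Epcam, an epithelial adhesion gene, was measured at 764 and 687 (-0.15) on a probe set of the _x_at kind, with 12.2 and 11.5 on its other, and the claudin gene Cldn4 at 111 and 103 (-0.11). Grhl2, an epithelial transcription factor gene, was measured at 932 and 1347, a log2 ratio of 0.53, with its other measured probe sets at 0.36 and -0.05. The part of epithelial cells in the Ehf signal was not tested.

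Gene order in RefSeq was used to look at the protein-coding neighbours of Ehf, a choice made after its values were seen. On 1 side lay Apip, of the methionine salvage pathway, at 1437 and 2055, and then Pdhx, of the pyruvate dehydrogenase complex, at 923 and 1419. Their log2 ratios of 0.52 and 0.62 exceeded the 2 SD of 0.36 for genes of their signal. On the other side lay Elf5, below the floor, and then Cat, the catalase gene, at 3254 and 3272 with a log2 ratio of 0.01.

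Spi1 had 1 probe set, which read 299 untreated and 336 with estradiol. The log2 ratio was 0.17, within the 2 SD of 0.62, and 30.2% of measured genes were at least as high. It ranged from 0.05 to 0.17 over the alternatives. Csf1r, the macrophage colony-stimulating factor receptor gene and a known PU.1 target, read 321 and 373, with ratios of 0.22 and 0.32 on its 2 measured probe sets; the other read 108 and 35.4, below the floor with estradiol.

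Genes known as PU.1 targets went both ways, and the measured ones past 2-fold were lower. Of 27 on the array 11 were measured, none 2-fold higher and 2 at least 2-fold lower, beside 1.10% of all measured genes, with 5 ratios above 0 and 6 below and a median of -0.26. Under common median and quantile scaling 3 were past 2-fold lower. Under these and loess scaling 4 ratios were above 0 and 7 below. Coro1a, an actin-binding protein gene of leukocytes, read 693 and 213 (log2 ratio -1.70), and -1.59 by bound on a second probe set. Plek, the pleckstrin gene, read 464 and 229 (-1.02), with -1.54 and a bound of -1.78 on its other probe sets. Cd53, a leukocyte tetraspanin gene, read 1209 and 610 (-0.99). Btk had -0.73, beyond the 2 SD of 0.62. Vav1 had -0.26 on its brightest probe set, within 2 SD, and -1.03 (371 and 182) on its other, beyond it. Laptm5, a lysosomal protein gene, read 2968 and 3423 (0.21), within 2 SD, as were the other measured ratios above 0. Below the floor on both arrays lay 10 genes of the list, beside 37.2% of all genes. A further 4 reached it with estradiol only and 2 untreated only. Of the former, Il7r, the interleukin 7 receptor gene, went from 62.8 to 186, a bound of at least 1.96-fold higher, and Fes, a tyrosine kinase gene, from 45.3 to 132, at least 1.38-fold. With no floor and 16 added their log2 ratios were 1.36 and 1.27, so that genes past 2-fold then lay on both sides. Of 7 neutrophil and monocyte markers on the array, Csf1r was measured, and Mpo, the myeloperoxidase gene, went from 85.0 to 137, a bound of at least 1.44-fold higher. The other 5 were below the floor: Itgam at 16.7 and 11.7, Elane at 29.7 and 34.8, Lyz2 at 87.0 and 20.5, Csf3r at 27.3 and 50.9, and Cd14 at 22.5 and 44.3. The 7 summed to 589 and 672, and the part of such cells in the PU.1 target values was not tested.

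Erg and Fli1 encode closely related ETS factors of stem cells, megakaryocytes and endothelium. The brighter Erg probe set read 153 untreated and 51.1 with estradiol, a bound of at least 1.61-fold lower (log2 -0.68). The other read 15.9 and 16.3, below the floor on both arrays, and gives no ratio. Among the 444 genes that reached the floor untreated only, 7.66% were at least 2-fold lower, and Erg was short of that. It passed 2-fold with the floor at the 30th percentile (-1.58) and with 16 added and no floor (-1.33). Fli1 read 73.0 and 63.1 on 1 probe set and 61.2 and 36.8 on the other, all below the floor.

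Genes known as FLI1 or ERG targets in megakaryocytes and endothelium were mostly dim. Of 18 on the array 12 were below the floor on both arrays, beside 37.2% of all genes. The other 6 were measured, all with a ratio above 0 and none past 2-fold, beside 3.14% of all measured genes. Their median was 0.18, and 0.00 over all measured genes. Gp5, a platelet glycoprotein gene at 251 and 256 (0.03), turned below 0 under common median, quantile and loess scaling, which leaves 5 of 6 above 0. Hhex, a homeobox gene of progenitors, read 3554 and 5719 (0.69) and lay beyond 2 SD. Itga2b, the platelet integrin alpha-IIb gene, read 498 and 553 (0.15), Kdr, a receptor gene for vascular endothelial growth factor, 208 and 249 (0.26), and Pf4, platelet factor 4, 145 and 165 (0.18). Of 5 endothelial markers, Kdr was measured, and Cdh5, Pecam1, Tek and Emcn were below the floor on both arrays, at 8.70 to 94.7. The 6 megakaryocyte markers on the array, of which 3 were measured, summed to 966 and 1038.

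Ets2 and Ets1 are the founding pair of the family, and the activity of both proteins is known to depend on phosphorylation downstream of RAS and MAP kinases. Ets2 read 1567 untreated and 875 with estradiol on its brightest probe set, with a log2 ratio of -0.84 and 1.79-fold lower. This exceeds the 2 SD of 0.36, and 1.91% of measured genes were at least as low. A second probe set, of the _x_at kind, went from 218 to 53.2, a bound of at least 2.29-fold lower, and another of that kind read 94.6 and 71.6, below the floor. The ratio of the brightest lay between -0.95 and -0.82 over the 8 alternatives of scaling, floor and probe set. Floors at the 30th and 70th percentile and the median over measured probe sets, of which Ets2 has 1, left it at -0.84 and could not move it.

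Ets1 was close to the floor. Its brightest probe set read 98.2 and 113 (log2 ratio 0.20), within the 2 SD of 0.62, and the other 3 read 73.5 and 79.6, 6.50 and 7.80, and 1.30 and 2.40. ETS1 is best known from lymphocytes, and of 5 lymphoid markers on the array 1 was measured, Pax5. It read 138 and 204 (0.56), within the 2 SD of 0.62, with 15.7 and 21.1 on its other probe set, below the floor. Il7r crossed the floor, from 62.8 to 186, and 3 were below it on both arrays. The summed signal of the list was 353 and 502. Ets1 lies next to Fli1 in the genome, and both were dim on both arrays. On the far side of Ets1, Kirrel3 was below the floor at 64.5 and 63.4. St3gal4, the gene after Kirrel3, read 846 and 1916 (1.18), beyond the 2 SD of 0.36. Kcnj1 and Kcnj5, on the far side of Fli1, were below the floor on both arrays. Erg and Ets2 are also neighbours, and the brightest probe set of each was lower with estradiol. On the far side of Ets2, Psmg1, a proteasome assembly chaperone gene, read 3619 and 2860 (-0.34), within the 2 SD of 0.36. Brwd1, the gene after Psmg1, read 627 and 671 (0.10). On the far side of Erg, Kcnj15 was below the floor at 9.60 and 17.8. Kcnj6, the gene after Kcnj15, read 140 and 135 (-0.05).

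Etv6, a transcriptional repressor gene known as TEL and needed for blood stem cells in adult marrow, was lower on both probe sets by nearly the same ratio. The brighter read 739 and 475 (-0.64, 1.56-fold lower) and the other 310 and 200 (-0.63, 1.55-fold lower). Both exceed 2 SD, 0.50 and 0.62, the second by little. At least as low a ratio was found in 3.87% of measured genes. Over the alternatives the Etv6 ratio lay between -0.75 and -0.62.

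Elf1, an activator gene expressed across blood lineages, was the member highest above 0 among those measured. Its probe sets read 750 and 1012, and 102 and 135, with log2 ratios of 0.43 and 0.41. Neither exceeds 2 SD, 0.50 and 0.62, and 11.7% of measured genes were at least as high. The probe sets nonetheless gave nearly the same ratio, and over the alternatives it lay between 0.32 and 0.44.

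Gabpa encodes the DNA-binding subunit of GABP, which pairs with a beta subunit and is known for housekeeping and mitochondrial genes. It read 2434 and 2018 on 1 probe set (-0.27) and 935 and 922 on the other (-0.02), both within 2 SD. The genes of its partner subunits read 781 and 688 for Gabpb1 (-0.18) and 2821 and 2409 for Gabpb2 (-0.23). Their other probe sets differed in sign, with 0.40 for Gabpb1 and from -0.24 to 0.30 over 3 for Gabpb2, all within 2 SD. Of 14 genes known as GABP targets, 13 were measured and none was past 2-fold, beside 3.14% of all measured genes. Of the 13, 3 lay above 0 and 10 below, with a median of -0.14, beside 0.00 over all measured genes. The split depended on the scaling, with 5 above and 8 below after quantile and 6 and 7 after loess scaling. Skp2, a ubiquitin ligase subunit gene, was furthest at 1745 and 918 (-0.93), and its 5 other probe sets ran from -1.34 to -0.19. The mitochondrial transcription genes Tfam (-0.50) and Tfb2m (-0.55) came after it, Tfam with -0.05 on a second probe set. The respiratory chain subunit genes Cox4i1 and Cox5b were at -0.01 and -0.04.

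Elk3 encodes a ternary complex factor, a kind of ETS protein that binds DNA with serum response factor. All 4 of its probe sets were below the floor on both arrays: 53.4 and 75.7, 41.2 and 19.5, 15.9 and 22.0, and 10.0 and 17.1. They give no ratio. Its relatives were measured. Elk1 read 120 and 223 (0.89), with a bound of 0.64 on a second probe set, and Elk4 read 2877 and 2188 (-0.39). The other Elk4 probe sets disagreed, with 642 and 636 (-0.01), 108 and 207 (0.93) and a bound of 0.28. Srf, the gene of the partner, read 777 and 457 (-0.77), with -0.37 on its other probe set.

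Genes known as ternary complex factor targets differed singly. Of 12 genes 9 were measured, 2 at least 2-fold higher (beside 2.04% of all measured genes) and 1 at least 2-fold lower (beside 1.10%). The median was 0.07, and it turned to -0.05 under common median scaling. The immediate early factor genes Egr1 (1923 and 3976, log2 ratio 1.05) and Junb (185 and 423, 1.19) were higher, and Fos went from 81.8 to 217, a bound of at least 2.28-fold higher. Under the common median scaling the count of measured genes past 2-fold was 2 in place of 3, since Egr1 was no longer past it. Ier3 was lower, at 478 and 165 (-1.53). Mcl1 read 7659 and 7711 (0.01).

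**Figure D3:**
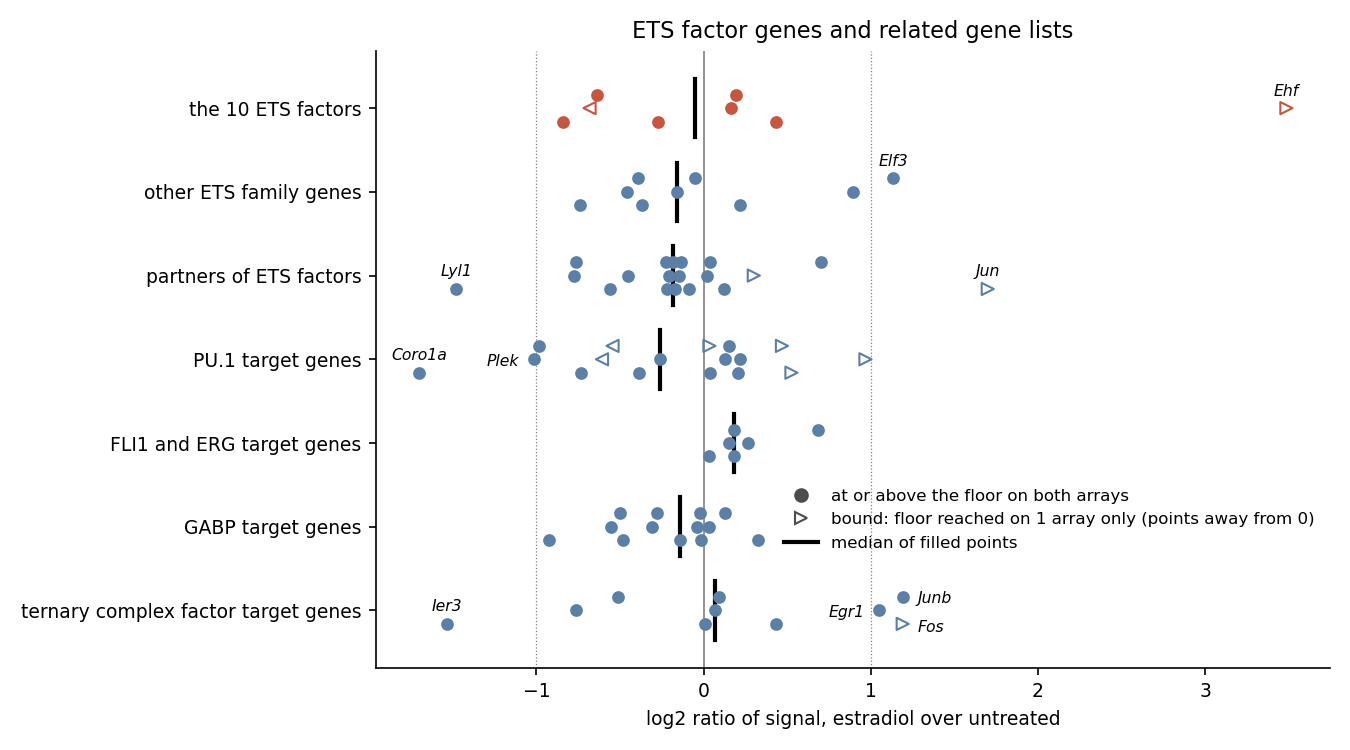
Log2 ratio of estradiol over untreated (horizontal axis) for the 10 ETS factor genes and 6 related lists, 1 point per gene by its brightest probe set; filled points are measured on both arrays, open triangles are bounds, black bars are medians of filled points, dotted lines mark 2-fold and genes past it are named. Ehf, at a bound of 3.49, lies to the right of all others shown.

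In the rest of the ETS family, Elf3 alone passed 2-fold among measured genes. Of 14 further ETS genes on the array 9 were measured, 1 of them at least 2-fold higher (beside 2.04% of all measured genes) and none 2-fold lower (beside 1.10%), 3 above 0 and 6 below, with a median of -0.16. Beside Elf3 and Elk1 the furthest was Etv5, a factor gene of the PEA3 branch, at 1980 and 1184 (-0.74), with -0.44 and -0.52 on its other probe sets. Erf, a repressor gene, had -0.46. Elf4 had -0.37 on its brightest probe set and -0.99 (339 and 171) on the other, which lay beyond 2 SD. Elf2 had -0.16 on its brightest, with -0.15 and -0.62 on others, the last just beyond the 2 SD of 0.62. The lymphoid and macrophage factor genes Spib and Spic, relatives of Spi1, were below the floor at 71.7 and 92.1, and 4.80 and 7.20.

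Among partners of ETS factors, 17 of 21 genes were measured, beside 56.3% of all genes. Of the 17, 13 were below 0, with a median of -0.18, beside 0.00 over all measured genes. The split moved with the scaling, to 15 below 0 under common median and quantile scaling and 14 under loess. The 1 measured partner past 2-fold, beside 3.14% of all measured genes, was Lyl1, a progenitor factor gene related to Tal1, at 6429 and 2305 (-1.48). Jun went from 86.5 to 309, a bound of at least 3.25-fold higher, with a bound of 1.04 on the log2 scale on its second probe set. Runx1, a stem cell factor gene, read 959 and 852 (-0.17) on its brightest probe set. Its other measured probe sets ran from -0.31 to 0.47, and 1 more crossed the floor from 76.3 to 252, a bound of 1.40 on the log2 scale, so the probe sets of Runx1 disagree. Its partner Cbfb read 4428 and 3829 (-0.21). The corepressor gene Sin3a, whose protein is a known partner of ETV6, read 1336 and 780 (-0.78), with -0.59 and -0.24 on its other probe sets.

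**Figure D4:**
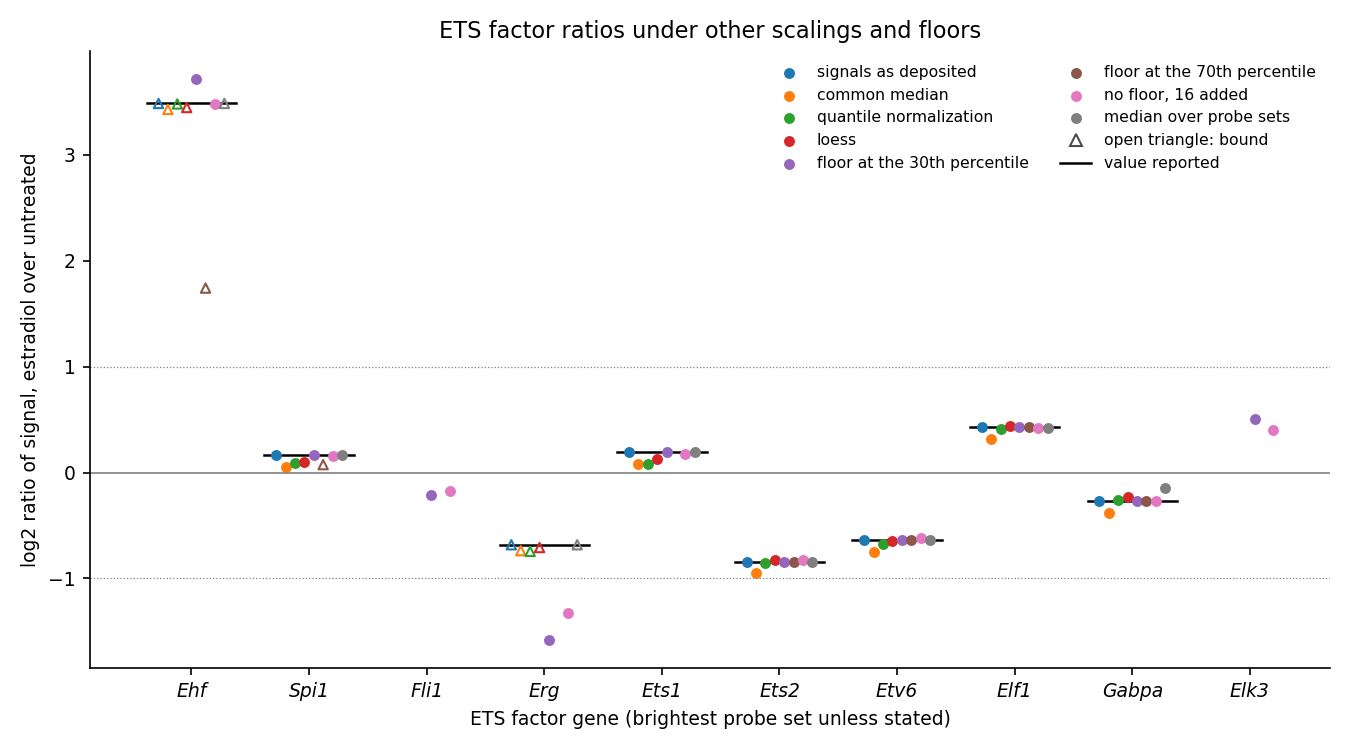
Log2 ratio of estradiol over untreated (vertical axis) for the 10 ETS factor genes under up to 8 alternatives of scaling, floor and probe set (colours; 7 give a value for Erg and Ets1, and 2 for Fli1 and Elk3, which have no reported value), with the reported value as a black line, open triangles for bounds and dotted lines at 2-fold. Ehf stays above 2-fold throughout, from 1.74 to 3.72, Erg passes 2-fold lower under 2 alternatives, and the other ETS factors stay within 2-fold.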

How the data were processed

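Per the labels, total RNA of 2 samples was labelled with biotin and hybridised to 1 short-oligonucleotide array each. The deposited values are linear signal intensities per probe set, made by the authors with GCOS per the submitters' processing notes, whose version and scaling target are not given in the sources used here. On both arrays the 2% trimmed mean was 500.0 as deposited. Of 45037 probe sets other than controls, 34945 had 1 gene symbol in the platform annotation, 932 several and 9160 none; of the first, 34741 had an Entrez identifier in RefSeq (GRCm38.p6).

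Signals were brought to a common trimmed mean (factors 0.999941 and 1.00006), which leaves them almost as deposited. The error scale is the pooled SD of log2 ratios between measured probe sets of 1 gene, 0.25 over 12514 probe sets of 4586 genes. It covers probe noise and transcript forms, not cultures, and the number of arrays limits precision. No test was made. Named genes are all members, list genes past 2-fold, the 3 furthest measured per list, the 5 genes most like Ehf, and further list members as examples, chosen after their values were seen. Alternatives were 4 scalings, floors at the 30th and 70th percentile or none with 16 added, the median over probe sets, and thresholds of 1.5-fold and 3-fold. The median over probe sets uses measured probe sets only, so for Ehf, Erg, Spi1, Ets1 and Ets2 it repeats the brightest. The members and lists were chosen with earlier results of these data known. Steps were tested on simulated data. Python 3.11.15, numpy 2.4.6, pandas 2.3.3, statsmodels 0.14.6 (loess, span 0.3) and matplotlib 3.10.9 were used.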

Additional observations from a re-analysis of the deposited data

How the results depend on the processing

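No paired analysis was possible because each group has 1 array. Alternatives were compared with the reported value by the SD of 0.25 for ratios and medians and by a factor of 1.5 for counts. Of 62 ratios of ETS factor genes recomputed, 59 moved by less than that SD, and no ratio past 2-fold changed sign. Part of this was fixed in advance, since floors at the 30th and 70th percentile leave a ratio unchanged where the gene stays measured. The signals as deposited also differ little from the scaled ones. The 62 leave out Fli1 and Elk3, which have no reported value. They also leave out Erg and Ets1 with the floor at the 70th percentile, where they have no ratio. Ehf was past 2-fold under each alternative, so the count of ETS factors higher was 1 throughout. The count lower was 0, and 1 (Erg) with the floor at the 30th percentile or none, and 3 (Ets2, Etv6, Erg) at a threshold of 1.5-fold. The median of the ETS factors was -0.45 over the 4 measured with the floor at the 70th percentile, which leaves out Spi1 and Ets1. That floor gave 0 genes past 2-fold for other ETS genes, 0 for PU.1 targets and 1 for ternary complex factor targets. The floor at the 30th percentile gave 2 for partners, 4 for PU.1 targets and 1 for FLI1 and ERG targets, and no floor gave 2, 5 (2 higher, 3 lower) and 3. A threshold of 1.5-fold gave 3 for other ETS genes, 4 for partners, 4 for PU.1 targets, 1 for FLI1 and ERG targets and 1 for GABP targets. A threshold of 3-fold gave 0, 0 and 1 for the first 3 of these and 0 for ternary complex factor targets. Common median scaling gave 1 for GABP targets. The medians of the ETS factors and of other ETS genes lay near 0 and turned to 0.01 with the median over probe sets and to 0.05 with no floor. Over the whole array, 209 genes were past 2-fold higher and 113 lower, of 10240 measured. With the floor at the 70th percentile these were 130 and 65 of 7122, and at the 30th 439 and 288 of 13461. Without a floor they were 679 and 512 of 18193. List counts at different floors can likewise rest on different numbers of measured genes. At a threshold of 1.5-fold the counts over the whole array were 728 and 497 of 10240, and at 3-fold 49 and 21. Signals near the floor of 95.2, as for Ets1, Erg and Fli1, limit what can be said of those genes.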
